A study of Mus musculus with 24 samples.

Results

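A set of 10 genes was followed here. They are transcribed in the hepatocytes around the central vein under Wnt signaling, and they were chosen by name for that textbook role, with earlier results of these data known. All 10 were present among the 55421 genes of the deposited tables, and all 10 were among the 13847 genes that passed the filter on low counts. They comprise 4 genes of nitrogen metabolism and transport (Glul, Oat, Rhbg and Slc1a2), 4 regulators of the Wnt pathway (Axin2, Lgr5, Rnf43 and Znrf3) and 2 transcription factors (Tbx3 and Sp5).

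Hepatocyte RNA of 24 aged C57BL/6J males was sequenced to learn how gene expression responds to a high-fat diet, and how that response differs under rapamycin, which inhibits the kinase mTOR. From 4 months of age the mice ate normal diet with vehicle or with encapsulated rapamycin (eRapa, 42 ppm). At 18 months 8 vehicle mice stayed on the normal diet (the group ND+veh). The others spent 9 weeks on a diet with 60% of its calories from fat, 7 of them on vehicle (HFD+veh) and 9 on eRapa (HFD+eRapa). The HFD+eRapa animals had therefore been on eRapa since 4 months of age, and rapamycin on normal diet is not analysed here. Hepatocytes came from a 2-step liver perfusion, repeated low-speed washes and a Percoll gradient, which together do not remove every other liver cell.

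In the liver lobule, blood flows from the portal tract to the central vein, and hepatocytes differ in function along this path. Endothelial cells of the central vein secrete Wnt ligands and R-spondins, which stabilize beta-catenin in the adjacent hepatocytes and turn on a pericentral program. Those cells capture ammonium as glutamine, whereas periportal hepatocytes make urea and glucose. In bulk RNA, a smaller number of pericentral hepatocytes and a lower amount of transcript in each of them cannot be told apart.

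The libraries held 17.7 to 25.9 M counts (M, units of 1000000), and all carried the same batch label. Alb, the albumin gene and a defining hepatocyte transcript, was at 31430 CPM or more in every library (CPM, counts per M counts after scaling of the libraries). Of the 24 libraries, 18 resembled the mean profile of their own group most, over the genes tested and with the library itself left out of that mean. The other 6 were ND+veh replicates 4 and 8 and HFD+eRapa replicates 2 and 4, which were closest to HFD+veh, and HFD+veh replicates 1 and 2, which were closest to HFD+eRapa. For the 10 genes, HFD+veh replicate 2 was the highest animal of its group 10 times out of 10, and HFD+eRapa replicate 2 was the lowest of its group 10 times out of 10. HFD+veh replicate 1 was the lowest of its group for 6 of them. Results are therefore given with and without these libraries where they differ.

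Promoters of the set were read first, because the Wnt response acts on them through the factors of the TCF/LEF family, which carry beta-catenin to DNA. RefSeq windows of GRCm38.p6 were found for 6 of the 10 genes (Glul, Oat, Slc1a2, Axin2, Rnf43 and Sp5) and not for Rhbg, Lgr5, Tbx3 or Znrf3. The 250 bases before the start site were searched on both strands for the TCF/LEF core written as CTTTGAT or CTTTGAA, which do not overlap each other. Rnf43 has 2 such windows, which makes 7. A core was present in 2 of the 7 windows, those of Sp5 and Slc1a2, and in 7.48% of the 32851 promoters in the reference (3.21% for CTTTGAT and 4.46% for CTTTGAA). Sequence outside the windows was not searched, so a window without a core does not show that the gene lacks one. The 4 windows that follow are given 5′ to 3′ in lower case with the core in capitals: both that hold it, and those of Glul and Axin2, the genes whose values are compared most below. The Sp5 core starts 104 bases before the start site and the Slc1a2 core, on the other strand, 207 bases before it. The Slc1a2 window precedes an internal start site within the gene.
Sp5, chr2:70474673-70474922, plus strand: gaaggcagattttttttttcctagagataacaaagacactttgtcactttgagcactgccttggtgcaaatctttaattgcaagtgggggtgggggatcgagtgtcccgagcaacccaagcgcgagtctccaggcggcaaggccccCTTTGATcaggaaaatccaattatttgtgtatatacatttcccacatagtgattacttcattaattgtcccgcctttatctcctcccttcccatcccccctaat
Slc1a2, chr2:102706188-102706437, plus strand: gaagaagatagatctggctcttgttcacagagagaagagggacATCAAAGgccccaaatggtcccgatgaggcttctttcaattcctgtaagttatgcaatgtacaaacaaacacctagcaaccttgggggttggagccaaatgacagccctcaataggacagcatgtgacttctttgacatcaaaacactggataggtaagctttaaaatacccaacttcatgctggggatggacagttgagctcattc
Glul, chr1:153899679-153899928, plus strand: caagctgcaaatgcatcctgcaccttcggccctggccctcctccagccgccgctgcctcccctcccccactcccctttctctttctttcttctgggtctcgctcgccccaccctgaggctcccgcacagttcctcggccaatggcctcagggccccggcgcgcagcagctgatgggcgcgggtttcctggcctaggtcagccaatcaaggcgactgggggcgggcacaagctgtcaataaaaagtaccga
Axin2, chr11:108920099-108920348, plus strand: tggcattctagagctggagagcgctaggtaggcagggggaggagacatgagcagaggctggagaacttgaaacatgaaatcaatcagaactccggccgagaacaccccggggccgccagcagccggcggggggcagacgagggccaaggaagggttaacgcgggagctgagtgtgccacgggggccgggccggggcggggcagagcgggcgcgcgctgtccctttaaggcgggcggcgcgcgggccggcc

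The levels of the set were ordered per length with FPKM, in which fragments are divided by gene length in kilobases and by the M of mapped fragments. In ND+veh, Oat (223 ± 96.7 FPKM, SD) and Glul (150.4 ± 70.1) stood above the rest, and their ranges overlapped. Slc1a2 followed with 17.1 ± 10.6 FPKM, and its range did not reach that of Glul. Below it came Tbx3 (7.62 ± 4.62), Rnf43 (5.15 ± 2.28), Axin2 (4.03 ± 1.19), Znrf3 (1.96 ± 0.613), Rhbg (1.50 ± 2.76), Lgr5 (1.19 ± 0.839) and Sp5 (0.956 ± 0.596 FPKM). The ranges of each neighbouring pair in this lower part overlapped. Within each of these 8 animals Axin2 was nevertheless above Znrf3, while the other neighbouring pairs of this part changed places between animals. The order of those other neighbours is therefore not resolved here. Genes further apart could be separated, as every Axin2 value was above every Sp5 value. In HFD+eRapa the order was the same apart from the places of Tbx3 and Rnf43 and of Rhbg and Znrf3. In HFD+veh, too, Oat, Glul and Slc1a2 were the top genes, at means of 128, 115 and 8.68 FPKM.

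HFD+veh was set against ND+veh to ask how the set responded to diet alone, in mice on vehicle. In all, 5 of the 10 genes (Axin2, Lgr5, Tbx3, Znrf3 and Sp5) had less RNA in HFD+veh than in ND+veh at an edgeR adjusted p under 0.05, termed called from here on, and 0 had more. Among all genes tested, 25.9% were called, and 9.86% were called lower. For the set the median log2 fold change came to -0.88, and for all genes tested to 0.05. In the second comparison, of HFD+eRapa with HFD+veh, 6 genes (Glul, Oat, Axin2, Lgr5, Tbx3 and Sp5) were higher with eRapa and 0 lower. Here 32% of all genes were called and 10.9% were called higher, and the median was 1.13 for the set and -0.04 for all genes. DESeq2 called 5 genes lower on the high-fat diet and 7 higher with eRapa, and limma voom 6 and 8. Over all genes, DESeq2 called 1558 lower and 1663 higher in these comparisons, and limma voom 1334 and 1600. Both comparisons use the same 7 HFD+veh animals, so they are not independent of each other.

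**Figure D1:**
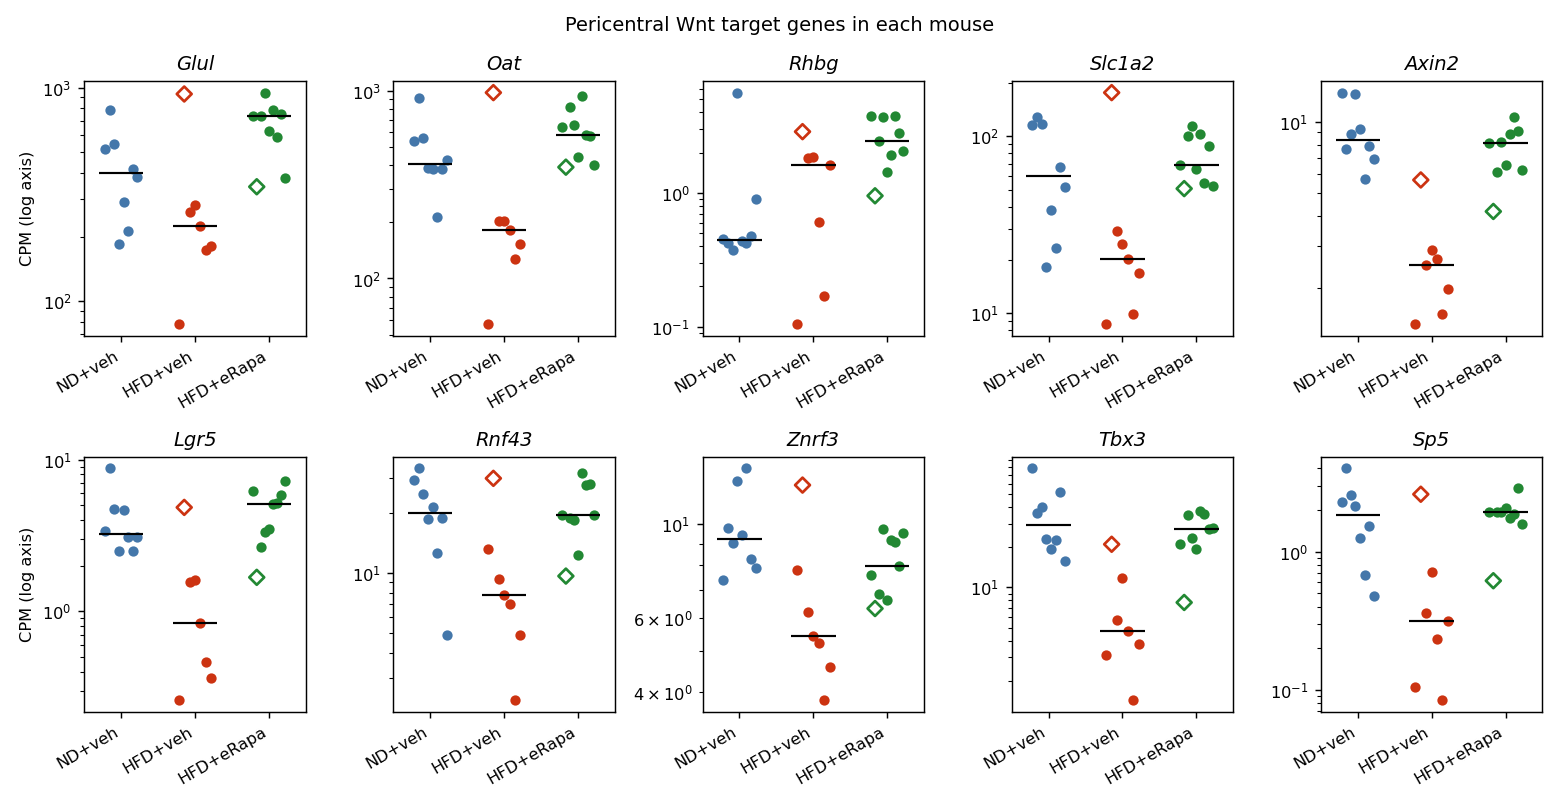
CPM of each of the 10 genes in each mouse on a log axis, by group (8 ND+veh, 7 HFD+veh and 9 HFD+eRapa animals), with the median as a black line and replicate 2 of both HFD groups as an open diamond. In every panel the open HFD+veh diamond is the top of its group and the open HFD+eRapa diamond the bottom of its own, and for Axin2 all 7 HFD+veh animals sit below all ND+veh animals.

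Glul encodes glutamine synthetase, which condenses ammonium with glutamate in the innermost pericentral hepatocytes (chromosome 1, 153899944 to 153909723, GRCm38). It ran from 184 to 783 CPM in ND+veh (median 397), from 77.8 to 933 CPM in HFD+veh (median 224) and from 343 to 947 CPM in HFD+eRapa (median 738). The HFD+veh range was set by its extremes: replicate 2 had 933 CPM and the other 6 animals between 77.8 and 281 CPM. In total 6 of 7 HFD+veh animals were below the ND+veh median, and the groups overlapped. HFD+veh differed from ND+veh by -0.45 on the log2 scale (SE 0.39, edgeR adjusted p = 0.402) and was not called. With eRapa, Glul was 2.15-fold higher than in HFD+veh (log2 fold change 1.10, SE 0.39, edgeR adjusted p = 0.0317), and 9 of 9 animals lay above the HFD+veh median. The call with eRapa was lost without any 1 of HFD+veh replicates 3 to 7 or HFD+eRapa replicates 4 and 6, with adjusted p of up to 0.0761. Without HFD+veh replicate 2 both differences were called, at -1.06 (edgeR adjusted p = 0.0138) and 1.72 (edgeR adjusted p = 0.000458).

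Oat encodes ornithine aminotransferase, a mitochondrial enzyme that converts ornithine toward glutamate and is found with glutamine synthetase around the central vein (chromosome 7, 132557478 to 132576398). Its values were 211 to 914 CPM in ND+veh (median 407), 57.1 to 975 CPM in HFD+veh (median 181) and 391 to 929.5 CPM in HFD+eRapa (median 583). In HFD+veh, 6 of 7 animals were below every ND+veh animal, and replicate 2 was above every one. On the high-fat diet Oat differed by -0.81 on the log2 scale (SE 0.42, edgeR adjusted p = 0.153), and without replicate 2 it was -1.63 (edgeR adjusted p = 0.00064). With all animals, limma called it lower by voom and on both FPKM scales (-1.24, -1.25 and -1.26, limma adjusted p = 0.0323, 0.0341 and 0.0371). Oat was 2.22-fold higher with eRapa (log2 fold change 1.15, SE 0.41, edgeR adjusted p = 0.0367). That call was lost without any 1 of HFD+veh replicates 1 and 3 to 7 or HFD+eRapa replicates 3 and 6, with adjusted p of up to 0.0892. The gene lies within the span of Fgfr2 on the same strand.

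Slc1a2 encodes a high-affinity glutamate transporter of the plasma membrane (chromosome 2, 102658659 to 102790784). It had 18.3 to 129 CPM in ND+veh (median 59.4), 8.66 to 177 CPM in HFD+veh (median 20.2) and 50.6 to 114 CPM in HFD+eRapa (median 69.0). HFD+veh replicate 2 had more than any ND+veh animal, while the other 6 had 29.1 CPM or less and 3 of the 7 were below all ND+veh animals. Neither the difference of -0.78 on the high-fat diet (SE 0.55, edgeR adjusted p = 0.298) nor that of 0.92 with eRapa (SE 0.54, edgeR adjusted p = 0.196) was called. Without replicate 2 both were, at -1.95 (edgeR adjusted p = 0.00215) and 2.09 (edgeR adjusted p = 0.000758). With all animals, Slc1a2 was called higher with eRapa by limma voom (1.66, adjusted p = 0.0188), on both FPKM scales (1.49 and 1.69, limma adjusted p = 0.0167 and 0.0148) and with the replicate number as a block (1.78, edgeR adjusted p = 0.0382). On log2(FPKM + 0.1) it was also called lower on the high-fat diet (-1.42, limma adjusted p = 0.048).

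Rhbg encodes an ammonium transporter of the Rh family (chromosome 3, 88242874 to 88254709). Its values were 0.372 to 5.60 CPM in ND+veh (median 0.444), 0.104 to 2.86 CPM in HFD+veh (median 1.62) and 0.950 to 3.73 CPM in HFD+eRapa (median 2.43). ND+veh replicate 4 alone held 5.60 CPM, against at most 0.901 CPM in the other ND+veh animals. The differences were 0.16 on the high-fat diet (SE 0.63, edgeR adjusted p = 0.874) and 0.96 with eRapa (SE 0.62, edgeR adjusted p = 0.247), and neither was called. Against ND+veh, HFD+eRapa was 1.12 higher on the log2 scale (SE 0.60, edgeR adjusted p = 0.245), and without ND+veh replicate 4 that difference was 2.32 and called (edgeR adjusted p = 0.00275). On that strand the gene overlaps Gm38392, which held 0 to 2 counts per library, so its counts are uncertain where reads fall on both.

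Axin2 encodes a scaffold of the beta-catenin destruction complex, and its transcription is a common readout of Wnt activity (chromosome 11, 108920349 to 108950783). It ran from 5.71 to 13.2 CPM in ND+veh (median 8.38), from 1.41 to 5.68 CPM in HFD+veh (median 2.50) and from 4.19 to 10.4 CPM in HFD+eRapa (median 8.14). The HFD+veh and ND+veh animals did not overlap. This held for 1 of the 10 genes, and for 2.44% of all genes tested. In the comparisons of HFD+eRapa with HFD+veh and with ND+veh it held for 0 of the 10, against 2.59% and 3.37% of all genes. Axin2 was 3.40-fold lower on the high-fat diet (log2 fold change -1.77, SE 0.26, 95% interval -2.31 to -1.22, edgeR adjusted p = 0.000115). With eRapa it was 2.83-fold higher than in HFD+veh (log2 fold change 1.50, SE 0.26, 95% interval 0.97 to 2.03, edgeR adjusted p = 0.000311), and 8 of 9 animals exceeded every HFD+veh animal. Both calls were kept in all 37 alternative fits, including those with a marker score of other cells as a covariate.

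Lgr5 encodes the receptor for R-spondins that strengthens Wnt signaling (chromosome 10, 115450311 to 115587780). Its values were 2.48 to 8.77 CPM in ND+veh (median 3.25), 0.261 to 4.85 CPM in HFD+veh (median 0.833) and 1.68 to 7.27 CPM in HFD+eRapa (median 5.12). In total 6 of 7 HFD+veh animals lay below every ND+veh animal, and replicate 2 lay within their range. Lgr5 was 2.86-fold lower on the high-fat diet (log2 fold change -1.52, SE 0.48, edgeR adjusted p = 0.0242) and 3.16-fold higher with eRapa than in HFD+veh (log2 fold change 1.66, SE 0.47, edgeR adjusted p = 0.0101). The call on the high-fat diet was lost without ND+veh replicate 2 (edgeR adjusted p = 0.0578) and without HFD+veh replicate 6 (edgeR adjusted p = 0.0558).

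Rnf43 and Znrf3 encode related membrane ubiquitin ligases that remove Frizzled receptors from the cell surface and are themselves induced by Wnt. Rnf43 (chromosome 11, 87662722 to 87735539) had 4.88 to 33.5 CPM in ND+veh (median 20.1), 2.32 to 29.8 CPM in HFD+veh (median 7.74) and 9.67 to 31.9 CPM in HFD+eRapa (median 19.5). Its differences of -0.95 on the high-fat diet (SE 0.41, edgeR adjusted p = 0.0901) and 0.96 with eRapa (SE 0.40, edgeR adjusted p = 0.0734) were not called, and both were without HFD+veh replicate 2, at -1.47 and 1.47 (edgeR adjusted p = 0.0064 and 0.00364). DESeq2 and limma voom called the difference with eRapa in all animals (0.94 and 1.26, adjusted p = 0.0452 and 0.0345). Without ND+veh replicate 8 the first was also called, at -1.10 (edgeR adjusted p = 0.0366). Znrf3 (chromosome 11, 5276324 to 5444847) varied least, with 7.38 to 13.6 CPM in ND+veh (median 9.23), 3.84 to 12.4 CPM in HFD+veh (median 5.45) and 6.32 to 9.76 CPM in HFD+eRapa (median 7.98). It was 1.50-fold lower on the high-fat diet (log2 fold change -0.59, SE 0.20, edgeR adjusted p = 0.034), with 5 of 7 animals below every ND+veh animal. That call was lost in 7 of the 24 fits that each left out 1 library (ND+veh replicates 4 and 6 and HFD+veh replicates 3 to 7), with adjusted p of up to 0.0769. With eRapa, Znrf3 differed by 0.32 (SE 0.19, edgeR adjusted p = 0.218), which was not called, and without HFD+veh replicate 2 it was called at 0.56 (edgeR adjusted p = 0.0108).

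Tbx3 encodes a T-box repressor that keeps periportal genes off in pericentral hepatocytes (chromosome 5, 119670669 to 119684724). It ran from 15.8 to 78.2 CPM in ND+veh (median 29.4), from 1.43 to 21.1 CPM in HFD+veh (median 4.68) and from 7.71 to 37.6 CPM in HFD+eRapa (median 27.4). In total 6 of 7 HFD+veh animals were below every ND+veh animal, and 7 of 9 HFD+eRapa animals were above every HFD+veh animal. With all libraries, Tbx3 had the largest difference of the set in both comparisons, 4.85-fold lower on the high-fat diet (log2 fold change -2.28, SE 0.47, edgeR adjusted p = 0.0023) and 3.53-fold higher with eRapa (log2 fold change 1.82, SE 0.46, edgeR adjusted p = 0.00513). Without HFD+veh replicate 2 the difference with eRapa was 2.36 for Tbx3, 2.39 for Lgr5 and 2.57 for Sp5. The second call was lost with a score of immune or of stromal cell markers as a covariate (1.20 and 1.26, edgeR adjusted p = 0.102 and 0.16). Reads of its antisense partner Tbx3os1, at 2 to 114 counts per library, could not be separated from it if the counting ignored strand.

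Sp5 encodes a zinc finger factor that is a direct Wnt target in many tissues (chromosome 2, 70474923 to 70477729). Its values were low, at 0.474 to 4.00 CPM in ND+veh (median 1.84), 0.0843 to 2.60 CPM in HFD+veh (median 0.314) and 0.615 to 2.91 CPM in HFD+eRapa (median 1.92). These correspond to as few as 2 counts in a HFD+veh library, so counting error adds to its spread. In total 5 of 7 HFD+veh animals were below every ND+veh animal. Sp5 was 2.94-fold lower on the high-fat diet (log2 fold change -1.55, SE 0.56, edgeR adjusted p = 0.0426) and 2.89-fold higher with eRapa (log2 fold change 1.53, SE 0.55, edgeR adjusted p = 0.0359). Of the 24 fits that each left out 1 library, 11 lost the first call (ND+veh replicates 1, 2, 3, 4 and 7 and HFD+veh replicates 1 and 3 to 7) and 8 the second (HFD+veh replicates 1 and 3 to 7 and HFD+eRapa replicates 5 and 8).

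**Figure D2:**
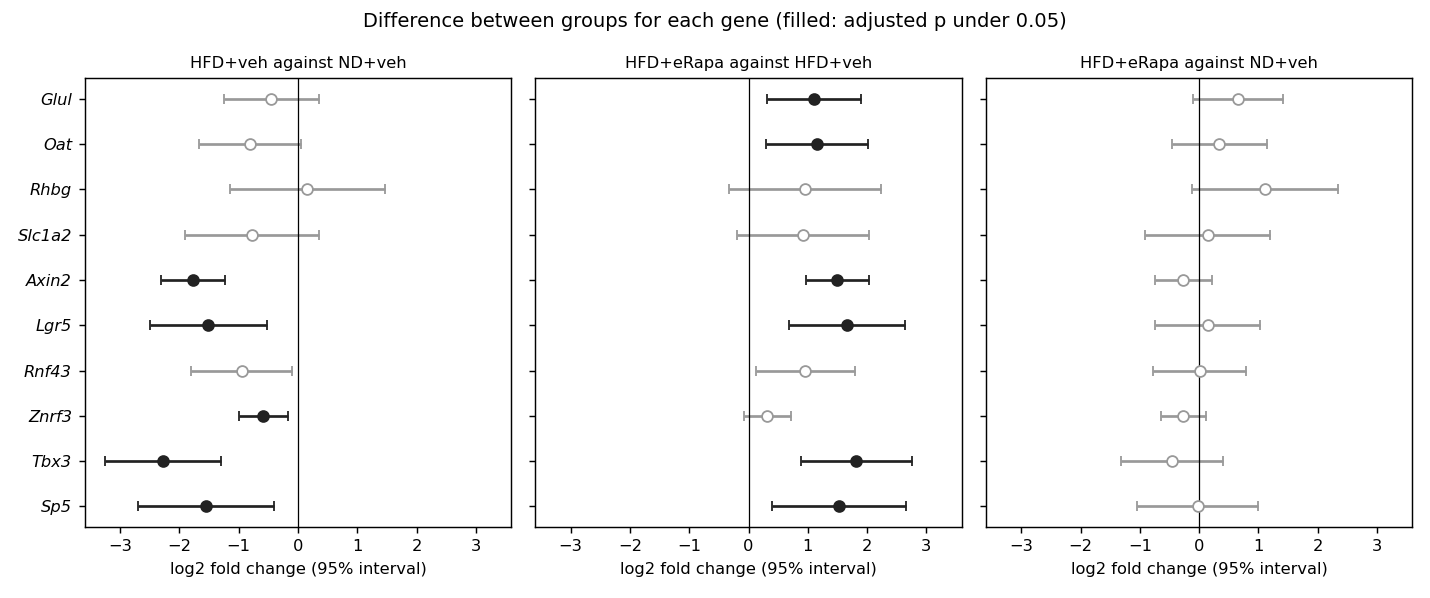
Log2 fold change of each gene with its 95% interval in the 3 comparisons, filled where the edgeR adjusted p was under 0.05. On the high-fat diet 5 genes are filled and all lie left of 0, with eRapa 6 are filled and all lie right of 0, and between HFD+eRapa and ND+veh 0 are filled.

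The remaining pair, HFD+eRapa and ND+veh, differ in both diet and drug. By edgeR, 0 of the 10 genes were called and 0 had an unadjusted p under 0.05, and DESeq2 and limma voom also called 0. Over all genes tested, 13.5% were called, 6.93% higher and 6.54% lower. The differences ran from a log2 fold change of -0.46 for Tbx3 to 1.12 for Rhbg, with a median of 0.08 against -0.03 over all genes tested. For Axin2 it was -0.27 with a 95% interval of -0.75 to 0.22, and for Glul 0.65 with an interval of -0.10 to 1.41. Only for Axin2, Rnf43 and Znrf3 did the interval stay within 1 log2 unit on both sides, so a 2-fold difference in the other 7 genes could not be set aside.

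The counts of called genes moved when single animals were left out. Without HFD+veh replicate 2, 9 genes (all but Rhbg) were lower on the high-fat diet and 9 higher with eRapa. Over all genes, 1724 were then lower and 1790 higher, against 1366 and 1507 with all libraries. Leaving out any of HFD+veh replicates 3, 4, 5, 6 or 7, whose values were low, gave 3, 3, 3, 2 and 3 lower genes on the high-fat diet and 3 higher genes each with eRapa, and leaving out replicate 1 gave 4 and 4. Over all genes, leaving out any of replicates 3 to 7 gave 1097 to 1385 lower and 1117 to 1683 higher, and replicate 1 gave 1642 and 1824. ND+veh replicates 2 and 4 left 3 called genes each on the high-fat diet when removed, and HFD+eRapa replicate 6 left 4 called with eRapa. The lower calls over all genes were then 1174 and 1621, and the higher calls with eRapa 1185. When both HFD animals numbered 2 were left out, a choice made after their values were seen, 9 genes were again lower and 9 higher. Over all genes, that fit gave 1803 lower and 2039 higher.

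Markers of other liver cells moved with the same groups. Of the macrophage markers, 4 of 11 were higher on the high-fat diet and 9 of 11 lower with eRapa, and their summed level was 48.5 to 1476 CPM in ND+veh, 185 to 5717 CPM in HFD+veh and 18.4 to 1181 CPM in HFD+eRapa. Clec4f, a marker of Kupffer cells, was at 3.83 CPM or more in every library. Endothelial markers were called higher for 2 of 10 genes on the high-fat diet and lower for 10 of 10 with eRapa, and stellate cell markers for 3 and 10 of 10. Among all genes tested, 16% were higher on the high-fat diet and 21.1% lower with eRapa. The 2 of 10 endothelial markers were thus near the share of all genes. Lymphocyte markers gave 2 higher and then 2 lower of 3 tested, neutrophil markers 2 and 2 of 4, and cholangiocyte markers 3 higher of 4, then 1 higher and 1 lower. A score was formed from 18 immune markers, as the mean of their standardized log2 CPM, and another from 24 markers of endothelial, stellate and bile duct cells. With the immune score as a covariate, 2 genes (Axin2 and Tbx3) were lower on the high-fat diet and 1 (Axin2) higher with eRapa. Calls fell over all 13847 genes too, from 1366 to 638 lower on the high-fat diet and from 1507 to 445 higher with eRapa. The genes no longer called kept their direction with this score, at -1.05 for Lgr5, -0.46 for Znrf3 and -0.89 for Sp5 on the high-fat diet and at 0.77 for Glul, 0.78 for Oat, 1.11 for Lgr5, 1.20 for Tbx3 and 0.87 for Sp5 with eRapa. With the stromal score Lgr5 was at -1.22, Znrf3 at -0.54 and Sp5 at -1.19 on the high-fat diet, and the 5 genes with eRapa at 0.70 to 1.26. The stromal score left the same 2 and 1, and the log2 fold changes of Axin2 were then -1.52 and 1.22 with the immune score, and -1.65 and 1.28 with the stromal one. Over all genes the stromal score left 928 lower on the high-fat diet and 339 higher with eRapa. HFD+veh replicates 1 and 2 had the lowest immune scores of their group, -0.53 and -0.46, and they were the lowest and the highest animal of that group for Glul. When these 2 animals were left out, a choice made after the values were seen, 9 genes were lower on the high-fat diet and 9 higher with eRapa. Leaving out replicate 2 alone also gave 9 and 9, so this fit is not a separate check on the immune score. Over all 14258 genes of that fit, 2287 were lower and 2468 higher.

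**Figure D3:**
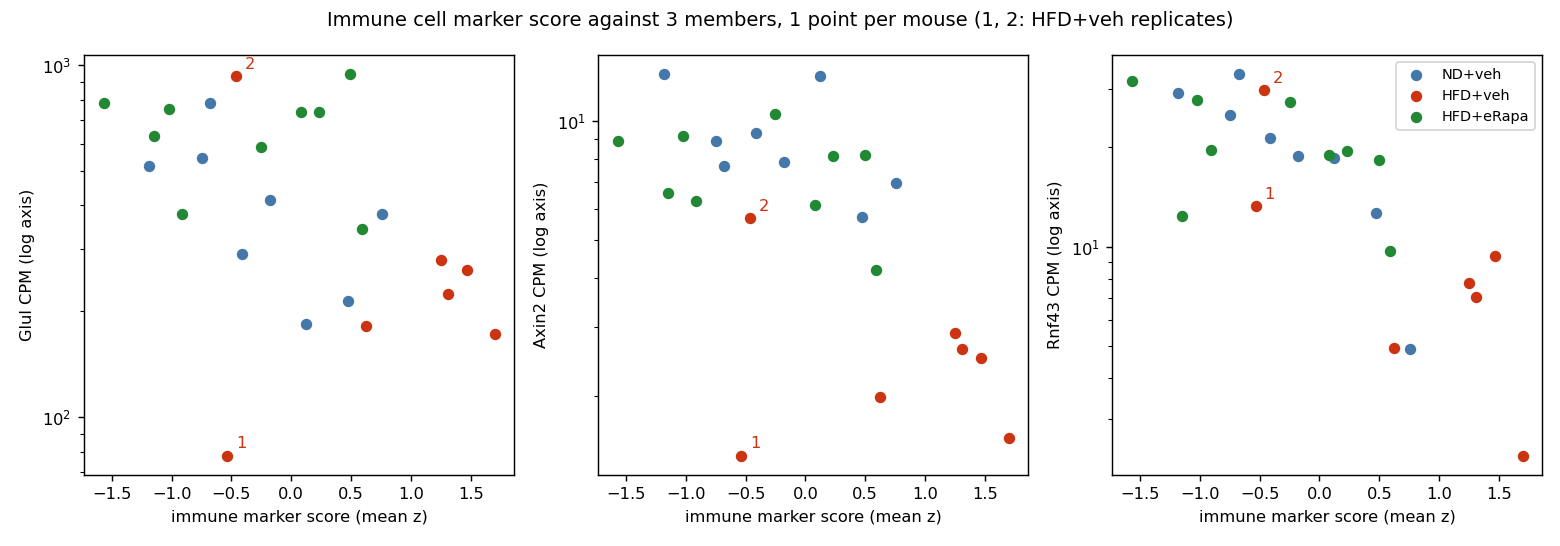
Immune marker score (mean standardized log2 CPM of 18 genes) against CPM of Glul, Axin2 and Rnf43 on a log axis, 1 point per mouse, with HFD+veh replicates 1 and 2 numbered. Both numbered animals have a score near -0.5, yet one has 77.8 and the other 933 CPM of Glul, while Rnf43 falls with the score within the groups.

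Within the groups, the immune score was set against the log2 CPM of each gene after group means were removed, over 24 animals and 10 relations. Rnf43 was related to it, with a Pearson r of -0.70 (permutation p = 0.0002, adjusted 0.002) and a Spearman rho of -0.74 (permutation p = 0.0002, adjusted 0.002), and r was -0.62 without the 2 animals farthest from the median score. Tbx3 had an r of -0.50 and a rho of -0.46 (permutation p = 0.0248 and 0.0325) and Sp5 an r of -0.49 and a rho of -0.47 (permutation p = 0.0231 and 0.0262), which did not pass adjustment (adjusted p = 0.0827 for both r, 0.108 for both rho). Glul had an r of -0.22 and a rho of -0.24 (permutation p = 0.364 and 0.283, adjusted 0.404 and 0.354). The part of other cells in the differences between groups was not tested beyond these values.

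The genes of the set also varied together between mice of one group. Against Glul, with group means removed, the 9 relations over 24 animals were closest for Slc1a2 (Pearson r 0.94, Spearman rho 0.97) and Oat (r 0.92, rho 0.90), each with a permutation p of 1e-05, the smallest these permutations can give, and an adjusted p of 4.5e-05. Sp5 (r 0.77, rho 0.71), Lgr5 (r 0.74, rho 0.55), Tbx3 (r 0.69, rho 0.69) and Axin2 (r 0.64, rho 0.52) followed, with raw permutation p for r of 0.00033, 0.0004, 0.0016 and 0.00551 and adjusted p of 0.0009, 0.0009, 0.00288 and 0.00827. For rho the raw p were 0.00039, 0.00729, 0.00064 and 0.0125, and the adjusted p 0.00117, 0.0131, 0.00144 and 0.0188. Rnf43 (r 0.48, rho 0.45), Rhbg (r 0.32, rho 0.26) and Znrf3 (r 0.18, rho 0.04) gave adjusted p for r of 0.0686, 0.266 and 0.5, from raw permutation p of 0.0533, 0.236 and 0.5. Their adjusted p for rho were 0.0498, 0.266 and 0.868, from raw permutation p of 0.0387, 0.236 and 0.868. Rnf43 thus passed narrowly by rho and not by r.

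The 2 animals farthest from the median of Glul were HFD+veh replicates 1 and 2. Without them r stayed at 0.91 for Slc1a2, 0.83 for Oat, 0.61 for Sp5, 0.58 for Tbx3 and 0.495 for Lgr5. That of Axin2 fell to 0.34 and no longer passed adjustment (adjusted permutation p = 0.202). The relation of Axin2 over all groups thus rests in part on these animals, and its call depends on them. Axin2 had an r with Glul of -0.03 within ND+veh, 0.96 within HFD+veh and 0.67 within HFD+eRapa, a group to which neither animal belongs. For Slc1a2 these were 0.98, 0.96 and 0.87, and for Oat 0.85, 0.996 and 0.79.

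**Figure D4:**
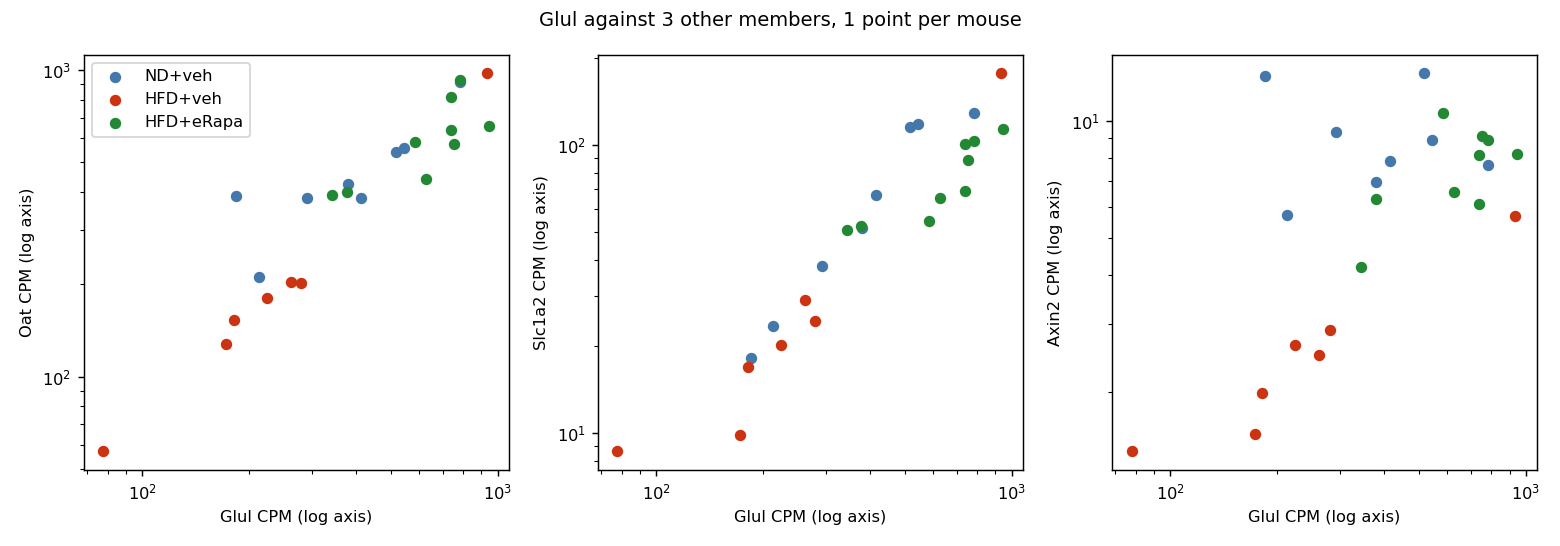
CPM of Oat, Slc1a2 and Axin2 against CPM of Glul on log axes, 1 point per mouse and colored by group. Oat and Slc1a2 rise with Glul in all 3 groups, whereas the HFD+veh animals lie below the ND+veh animals in Axin2 at like levels of Glul.

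Whether the genes changed in step with Glul was asked with the log2 ratio of each gene to Glul in each animal, in 27 exact permutation tests (two-sided) that were added after the values were seen. On the high-fat diet the ratio fell for Tbx3 by 1.86, for Lgr5 by 1.22, for Sp5 by 1.14, for Axin2 by 1.13 and for Oat by 0.54 on the log2 scale (exact permutation p = 0.000622, 0.000622, 0.00839, 0.00622 and 0.00155, adjusted 0.00839, 0.00839, 0.0283, 0.024 and 0.014). The ratios of Slc1a2, Rnf43, Znrf3 and Rhbg had adjusted p of 0.0881 or more in that comparison. Between HFD+eRapa and HFD+veh, only the ratio of Znrf3 differed past adjustment, by -1.03 (exact permutation p = 0.00577, adjusted 0.024). HFD+eRapa animals also had lower ratios to Glul than ND+veh animals for Axin2 by -0.99, Tbx3 by -1.11 and Znrf3 by -0.99 (exact permutation p = 0.00436, 0.00428 and 0.0135, adjusted 0.0235, 0.0235 and 0.0405).

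Other zonated genes were described beside the set by 2 lists. Of 20 other pericentral genes, 13 were lower and 1 higher on the high-fat diet (median log2 fold change -1.17), and 13 were higher and 2 lower with eRapa (median 1.06). Over all genes tested, 9.86% were lower on the high-fat diet and 10.9% higher with eRapa. Cyp2e1, a cytochrome P450 and the most abundant of them by mean FPKM over the 24 libraries, fell by 1.93 on the log2 scale (SE 0.32, edgeR adjusted p = 0.00036) and was higher by 2.04 with eRapa (SE 0.32, edgeR adjusted p = 0.00014). Gulo, an enzyme of ascorbate synthesis, fell by 2.01 and was higher by 1.98 (edgeR adjusted p = 0.000218 and 0.00015), and the HFD+veh animals overlapped neither other group. The cytochrome P450 genes Cyp2c37 and Cyp1a2 fell by 2.04 and 1.72 on the high-fat diet (edgeR adjusted p = 0.00136 and 0.00406). Cyp2c37 and Cyp2c29 were lower than in ND+veh with eRapa too, by -2.16 and -1.79 (edgeR adjusted p = 0.000268 and 0.000192). Aldh1a1, a retinal dehydrogenase named after its value was seen, was the 1 gene higher on the high-fat diet (log2 fold change 0.81, edgeR adjusted p = 0.00324), and the glutathione transferases Gstm1 and Gstm3 were the 2 lower with eRapa (log2 fold changes -1.75 and -2.69, edgeR adjusted p = 0.00168 and 0.00796). With the immune or the stromal score as a covariate, 8 and 7 of the 20 genes were called with eRapa, as were 1028 and 770 of all 13847 genes.

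Of 18 periportal genes, 11 were higher and 0 lower on the high-fat diet (median 1.01, against 16% of all genes higher), and 7 were lower and 0 higher with eRapa (median -0.46, against 21.1% of all genes lower). Cyp2f2, a periportal cytochrome P450, had 554 CPM on average in ND+veh and 1697 CPM in HFD+veh (log2 fold change 1.61, SE 0.27, edgeR adjusted p = 0.00036), with no overlap of the animals. Sds, which deaminates serine, rose by 2.44 on the log2 scale on the high-fat diet and was lower by -1.55 with eRapa (edgeR adjusted p = 0.00103 and 0.00907). Ctsc, a lysosomal protease that macrophages also express, rose by 2.14 and was lower by -2.34 with eRapa (edgeR adjusted p = 0.00109 and 0.00027). Hsd17b6, a retinol and steroid dehydrogenase, rose by 1.86 and was lower by -1.86 (edgeR adjusted p = 0.000481 and 0.000222). Etnppl, an ethanolamine-phosphate phospho-lyase, rose by 1.40 and was lower by -1.48 (edgeR adjusted p = 0.00233 and 0.00075). Ass1, an enzyme of the urea cycle and the most abundant of the list by mean FPKM, was not called in either comparison (0.31 and -0.41, edgeR adjusted p = 0.427 and 0.262). HFD+veh replicate 1 had both the lowest sum of the other pericentral genes, 4892 CPM, and the highest sum of the periportal genes, 33740 CPM, of its group. In HFD+veh replicate 2 the other pericentral genes summed to 11000.4 CPM, the highest of its group and below every ND+veh animal, whose lowest sum was 13149 CPM.

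**Figure D5:**
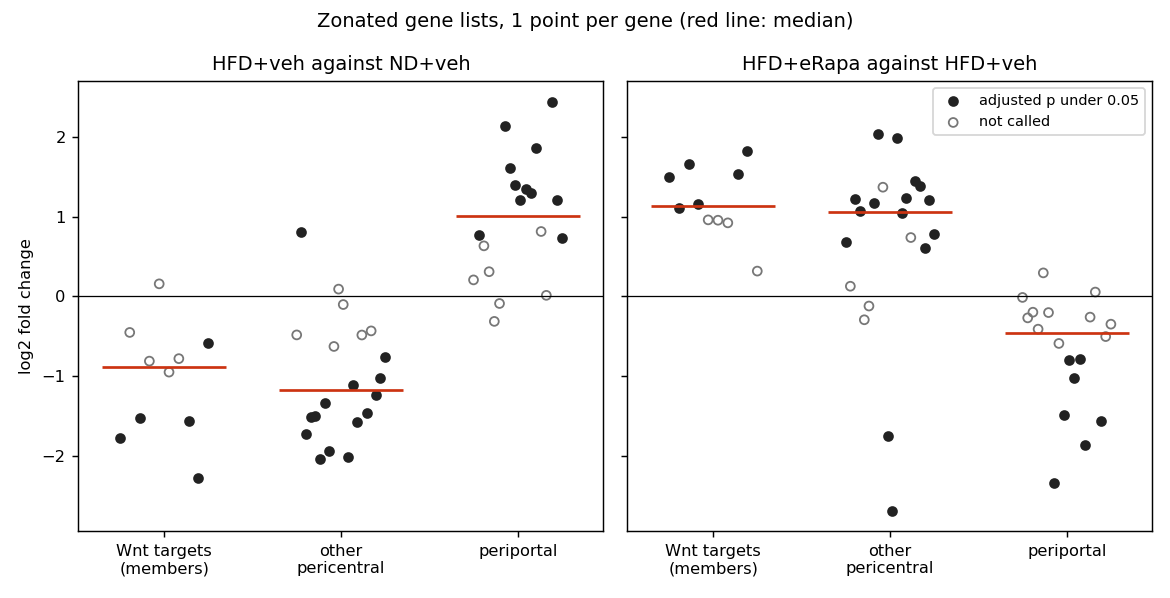
Log2 fold change of each gene of the set, of 20 other pericentral genes and of 18 periportal genes, for HFD+veh against ND+veh and for HFD+eRapa against HFD+veh, filled where the edgeR adjusted p was under 0.05, with the list median in red. The medians of the set and of the other pericentral genes lie at -0.88 and -1.17 on the high-fat diet and at 1.13 and 1.06 with eRapa, and those of the periportal genes at 1.01 and -0.46.

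The upstream components of the pathway were taken from fixed lists. Of 24 Wnt ligands, R-spondins and secretion genes, 10 passed the filter on low counts. On the high-fat diet 1 of them was higher and 1 lower, and with eRapa 3 were lower and 0 higher. These 2 and 3 of 10 were close to the 25.9% and 32% called among all genes. Wls, which escorts Wnt proteins to the cell surface, was higher on the high-fat diet (log2 fold change 1.91, edgeR adjusted p = 0.0327) and lower with eRapa (-2.40, edgeR adjusted p = 0.00639), and Porcn, which acylates them, was lower on the high-fat diet (-1.45, edgeR adjusted p = 0.00751). Wnt2 and Rspo3, both made by liver endothelial cells, were lower with eRapa than in HFD+veh, by -1.46 and -1.32 (edgeR adjusted p = 0.0438 and 0.0436). The endothelial markers were lower in the same comparison. Among 17 receptors and co-receptors, 11 were tested, of which 4 were lower and 1 higher on the high-fat diet and 1 was higher with eRapa, where 25.9% and 32% of all genes were called. Fzd5 and Fzd7, which encode Frizzled receptors, fell by 0.95 and 0.74 on the log2 scale and Fzd4 rose by 0.70 (edgeR adjusted p = 0.00547, 0.0132 and 0.00971). The gene higher with eRapa was the co-receptor Lrp5, which fell by 0.82 on the log2 scale on the high-fat diet and was higher by 0.61 with eRapa (edgeR adjusted p = 0.000613 and 0.00306). Of 27 genes of the beta-catenin pathway and its transcription complex, 25 were tested, 5 were lower and 1 higher on the high-fat diet, and 2 were higher and 6 lower with eRapa. These 6 and 8 of 25 were close to the 25.9% and 32% called among all genes. Tle4, a co-repressor of TCF factors, rose by 0.65 on the high-fat diet and was lower by -0.96 with eRapa (edgeR adjusted p = 0.00117 and 1.6e-05), without overlap of the animals in either comparison. Bcl9l, a co-activator of beta-catenin, fell by 0.70 and was higher by 0.75 with eRapa (edgeR adjusted p = 0.0262 and 0.0122). Ctnnb1, which encodes beta-catenin and was the most abundant of them by mean FPKM, was at 215 to 254 CPM in ND+veh, 241 to 320.5 CPM in HFD+veh and 213 to 300.1 CPM in HFD+eRapa, and was not called.

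Of 19 antagonists and other feedback targets, 7 were tested. On the high-fat diet 2 were lower and 1 higher, and with eRapa 2 were higher and 2 lower, where 25.9% and 32% of all genes were called. In HFD+eRapa 2 of the 7 were lower than in ND+veh, as were 6.54% of all genes. Notum, a secreted Wnt deacylase that is also induced by the pathway, had 20.2 to 43.6 CPM in ND+veh, 1.05 to 18.8 CPM in HFD+veh and 9.73 to 25.2 CPM in HFD+eRapa. The HFD+veh and ND+veh animals did not overlap, and the log2 fold change was -2.20 (SE 0.40, edgeR adjusted p = 0.000727), with 1.29 for eRapa against HFD+veh (SE 0.38, edgeR adjusted p = 0.0122). Tnfrsf19, another Wnt target, fell by 1.07 and was higher by 0.97 with eRapa (edgeR adjusted p = 0.0339 and 0.0401). Cd44, a surface protein that leukocytes also carry, went the other way, by 3.30 and -3.09 (edgeR adjusted p = 0.0147 and 0.0105).

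Of 24 genes that handle ammonium, glutamate and proline, 19 were tested, of which 4 were higher on the high-fat diet and 4 higher and 6 lower with eRapa, where 25.9% and 32% of all genes were called. The 4 higher with eRapa, named after their values were seen, were Glud1, Got2, Slc1a4 and Aldh4a1, by 0.57 to 0.97 on the log2 scale. Slc38a4, an amino acid transporter and the most abundant of the list by mean FPKM, was not called in either comparison. Slc38a1, a glutamine transporter, was higher on the high-fat diet by 3.02 and lower with eRapa by -3.01 on the log2 scale (edgeR adjusted p = 0.0148 and 0.00788). The cystine and glutamate exchanger Slc7a11 and the glutamate transporter Slc1a3 were lower with eRapa by -3.14 and -2.48 (edgeR adjusted p = 0.043 for each).

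A search over 7830 genes with a mean log2 CPM of at least 3 named those whose pattern between animals, with group means removed, was most like that of Glul or Axin2. For Glul these were Slc1a2 (Pearson r 0.94), Oat (0.92), Lhpp (0.92), Cyp2e1 (0.83) and Gulo (0.80). For Axin2 they were Ccdc157 (0.81), Lhpp (0.77), Tbx3 (0.75), Gulo (0.75) and Oat (0.73). These r are over 24 libraries and describe the animals measured here.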

How the data were processed

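Groups and replicate numbers came from the sample labels. The deposited counts were whole reads assigned to each gene. The authors produced them using STAR, SAMtools 1.1.0 and HTSeq 0.11.2 on mm10 with the Gencode M23 annotation. Whether that counting used strand is not given in the sources used here. The deposited FPKM values came from Cufflinks, run by the authors on those alignments. All columns matched a sample.

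Counts were tested with edgeR 4.0.16 (filterByExpr by group, TMM, robust quasi-likelihood fit) in 1 fit of all 24 libraries with no covariates, and p-values were adjusted by Benjamini-Hochberg over 13847 genes. CPM used the TMM-scaled totals, and log2 CPM a prior count of 2. On simulated counts for 13670 genes, 123 of 200 genes changed in HFD+veh were recovered for HFD+veh against ND+veh, and 8.21% of calls were false. The changed genes had a median estimated log2 fold change of 0.99 in size. Simulated libraries were drawn independently, without the shifts of whole libraries seen in the real data. Libraries of 1 group, taken in pairs, differed with a chi-square of at least 12.7 per degree of freedom, so no library was counted as a duplicate. Permutations kept the groups, with 100000 resamples. Gene positions are from Gencode M21 of GRCm38, the same assembly as mm10.

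The genes and lists were chosen with earlier results of these data known. All 10 genes were named. From each other list, only the called genes with the largest change, at most 4 per comparison, and the most abundant gene by mean FPKM could be named, apart from those said to be named after their values were seen. The 5 genes most like Glul and Axin2 skipped predicted genes. Alternatives were DESeq2 1.42.0, limma 3.58.1 voom, limma on log2(FPKM + 1) and log2(FPKM + 0.1), other scaling and filters, fits of the 2 groups compared, marker scores as covariates, the replicate number as a block, and the removal of libraries.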

Additional observations from a re-analysis of the deposited data

Results flagged for a closer look

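Among 30 groups of values tested (each of the 10 genes in each of 3 groups, on log2 CPM), 4 held an animal that stood well away from its group, and chance alone gives about 1.5. Rhbg in ND+veh replicate 4 was 5.60 CPM, against 0.372 to 0.901 CPM in the other ND+veh animals. Slc1a2 in HFD+veh replicate 2 was 177 CPM, against 8.66 to 29.1 CPM in the other HFD+veh animals. In HFD+eRapa replicate 2, Tbx3 was 7.71 CPM and Sp5 0.615 CPM, against 19.5 to 37.6 CPM and 1.58 to 2.91 CPM in the other HFD+eRapa animals.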

How the results depend on the processing

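Of 367 values of single genes recomputed under the alternatives in each comparison, direction and side of the threshold held for 315 on the high-fat diet, 313 with eRapa and 343 when HFD+eRapa was set against ND+veh. The 5 genes of the set called on the high-fat diet became 3 without the filter and 2 with only the 2 groups compared. They became 2 with the immune and 2 with the stromal score. With 10 counts required in every library 3 were called, but only 7 of the 10 genes were then tested. Lgr5, Sp5 and Rhbg dropped out, and Axin2, Tbx3 and Znrf3 stayed called. The count was 9 without both HFD animals numbered 2 or without the 2 HFD+veh animals lowest in immune score. Both of those removals were chosen after the values were seen. The 6 called with eRapa became 7 with DESeq2, 8 with voom, 3 without the filter, 3 with only the 2 groups compared and 1 with either score. Over all genes, lower calls on the high-fat diet were 1034 without the filter, 900 with only the 2 groups compared and 638 with the immune score. Higher calls with eRapa were 1393, 1251 and 445 in those fits. The 15 other pericentral genes called with eRapa became 8 with the immune and 7 with the stromal score, and the 7 periportal genes 4 without the 2 HFD+veh animals lowest in immune score. For HFD+eRapa against ND+veh, 2 periportal genes became 1 with voom, without the filter, on either FPKM scale and without both HFD animals numbered 2, 4 with only the 2 groups compared and 5 with the immune score. Why the calls changed in the other fits was not tested.

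Replicate numbers were not used to pair the animals. The correlation of same-numbered libraries passed 0.1 in 5 of 7, 2 of 7 and 2 of 8 pairs. Its means were 0.32 for HFD+veh and ND+veh, -0.24 for HFD+eRapa and HFD+veh, and -0.20 for HFD+eRapa and ND+veh. Libraries of unlike number were not correlated, so these values do not settle whether the numbers pair animals. When the replicate number entered as a block, 4 genes of the set were called on the high-fat diet, 7 with eRapa and 0 against ND+veh. Of all 13847 genes, 2461, 2532 and 1575 were called under the block. Periportal genes called were 4 with eRapa and 5 against ND+veh under that block, and Sp5 reversed to 0.37 against ND+veh.

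Leaving out each library in turn gave 2 to 9 genes of the set on the high-fat diet, 3 to 9 with eRapa and 0 to 1 against ND+veh, 14 to 17, 14 to 17 and 5 to 7 other pericentral genes, and 11 to 12, 5 to 7 and 1 to 3 periportal genes. Over all genes, the same fits called 2106 to 4479, 3269 to 5061 and 1462 to 2232. In those fits Rhbg ran from -0.17 to 1.34 on the high-fat diet, and against ND+veh Slc1a2 ran from -0.017 to 0.33, Rnf43 from -0.14 to 0.15 and Sp5 from -0.17 to 0.23. Other reversals were all of values not called: Rhbg on the high-fat diet at -0.021 with the immune score and -0.17 without both HFD animals numbered 2, and against ND+veh Slc1a2 at -0.067, Lgr5 at -0.12 and Rnf43 at -0.30 with the stromal score, Lgr5 at -0.058 and -0.11 on the FPKM scales, and Sp5 at 0.11 with voom, 0.017 on log2(FPKM + 0.1) and 0.088 without both HFD animals numbered 2.

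On log2(FPKM + 1) the r with Glul was 0.23 for Axin2 and 0.41 for Lgr5, and neither passed adjustment. Without the 2 animals farthest from the median of Glul it was 0.34 for Axin2 (no longer past adjustment), 0.48 for Rnf43 (now past adjustment), -0.089 for Rhbg and -0.13 for Znrf3. Depth limits Sp5, Rhbg and Lgr5 most, with as few as 2, 2 and 5 counts in a library.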
